A study of Mus musculus with 2 samples.

Results

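The Dlk1-Meg3 domain is a cluster of imprinted genes on the distal part of mouse chromosome 12. It was followed here through 7 listed genes (Begain, Dlk1, Meg3, Rtl1, Rian, Mirg and Dio3) in an mRNA-seq comparison of mouse embryonic fibroblasts (MEFs), which are fibroblasts grown from mouse embryos. Members were taken by gene symbol from the deposited expression table, whatever quality status the entry carried, and this gave 6 entries of 29126. Rtl1 was not analysed here. The groups were Dnmt1+/+ and Dnmt1-/- MEFs, each with 1 strand-specific library. Both cell lines lack p53 (trp53-/-), and the Dnmt1-/- line is homozygous for a hypomorphic allele of Dnmt1 (Dnmt1n/n), whose product copies DNA methylation onto newly replicated strands. The strain is given as unknown. The question for the domain was how much RNA its genes made when DNA methylation was strongly reduced.

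In imprinted domains, genes are expressed mainly from the chromosome of one parent. At Dlk1-Meg3 the protein-coding genes Dlk1, Rtl1 and Dio3 are known to be active mainly on the paternal chromosome, and the non-coding RNAs Meg3, Rian and Mirg on the maternal one. An intergenic control region between Dlk1 and Meg3, methylated on the paternal chromosome, sets this pattern, and the non-coding RNAs carry clusters of box C/D snoRNAs and miRNAs. The table gives 1 value per gene and library and does not separate the parental alleles.

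Values are RPKM, which divide the reads of a transcript by its length and by the total mapped in its library, so levels of different genes can be set side by side. A change is the difference of log2(RPKM + 0.1) between the Dnmt1-/- and the Dnmt1+/+ library, a scale that understates the change of genes at low RPKM. An entry was counted as higher or lower if it differed by more than 2-fold on this scale, had the status OK (the label Cuffdiff gives an entry it could quantify) and a symbol, and reached an RPKM of 1 in one library or the other. The median change of the 11244 such entries was -0.14. With 1 library per genotype no spread between replicates could be estimated, the table holds no read counts or depth, and no p-value is given. The values therefore describe these 2 libraries.

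Dlk1 and Meg3 lie on the plus strand, 77.6 kb apart. Their upstream sequences are shown because Dlk1 is active mainly on the paternal and Meg3 on the maternal chromosome. Both genes also had lower RNA in Dnmt1-/- MEFs. Each run is the 250 bases before the RefSeq start, read 5′ to 3′ on the plus strand, with every CpG, the dinucleotide that DNA methyltransferases modify, in capitals. The Dlk1 run is chr12:110690783-110691032 and the Meg3 run is chr12:110778956-110779205 in NCBI37 (mm9).
Dlk1: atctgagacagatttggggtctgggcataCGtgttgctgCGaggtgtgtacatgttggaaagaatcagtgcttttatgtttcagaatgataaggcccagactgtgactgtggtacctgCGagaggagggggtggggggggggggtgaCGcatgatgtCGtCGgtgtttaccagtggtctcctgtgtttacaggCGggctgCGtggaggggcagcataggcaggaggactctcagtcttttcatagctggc
Meg3: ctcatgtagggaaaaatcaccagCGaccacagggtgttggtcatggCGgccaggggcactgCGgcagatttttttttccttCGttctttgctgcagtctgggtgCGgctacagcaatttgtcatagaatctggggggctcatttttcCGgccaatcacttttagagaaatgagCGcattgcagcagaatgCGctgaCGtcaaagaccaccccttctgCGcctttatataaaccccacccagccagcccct
The Dlk1 run holds 8 CpGs and the Meg3 run 10. The whole RefSeq window of 300 bases adds 50 bases after the start. Counted over it, Dlk1 has 9 CpGs and the first Meg3 window 13, where the median of 32851 mouse promoter windows is 7. The other Meg3 window holds 1 CpG. The window at the annotated start of Rian holds 0 CpGs and that of Mirg 10, while the window of Dio3 holds 25 and the 5 windows of Begain hold 34 to 46. The letters TGCCGC, the motif of the imprint-protecting zinc finger protein ZFP57, were searched on both strands and were found once, in the first Meg3 window, and in none of the other 10 member windows. Of all promoter windows, 11.6% hold TGCCGC on either strand. The letters TATAAA were matched 2 times in the first Meg3 window, once on each strand at overlapping positions, and once in the Dio3 window, where 13.6% of all windows hold them.

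Dlk1 encodes a Delta-like transmembrane protein, also called preadipocyte factor 1, which restrains the differentiation of fat cells. Its entry (chr12:110691033-110701546) had an RPKM of 7.45 in the Dnmt1+/+ library and 0.405 in the Dnmt1-/- library. The level was thus 18.4-fold lower in Dnmt1-/- MEFs, a log2 change of -3.90, or -3.76 after the median change of all entries is subtracted. Only 114 of the 11244 entries, or 1.01%, had a lower change. Raising the pseudocount to 1 gave a log2 change of -2.59 for Dlk1, still past 2-fold.

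Meg3, a long non-coding RNA, had the highest RPKM of the members in either library. Its entry (chr12:110779181-110809939) was at 18.2 RPKM in Dnmt1+/+ and at 2.04 RPKM in Dnmt1-/- MEFs. This is an 8.89-fold lower level, a log2 change of -3.09, and 1.79% of entries had a lower change. The annotation places another non-coding RNA, Gm17639, on the opposite strand at the 3′ end of Meg3, and how the strand of reads was used in counting is not stated, so a contribution of that RNA to the value of Meg3 cannot be told apart.

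Rian is the host of most of the box C/D snoRNAs of the domain, and 13 annotated snoRNA genes and 4 annotated miRNA genes lie on the plus strand within its entry (chr12:110842130-110899921). It had an RPKM of 15.0 in the Dnmt1+/+ library and 1.99 in the Dnmt1-/- library. The level was 7.55-fold lower in Dnmt1-/-, with a log2 change of -2.86. Meg3 and Rian, separated by 32.2 kb, kept close to the same proportion, since the RPKM of Meg3 was 1.21 times that of Rian in Dnmt1+/+ and 1.03 times in Dnmt1-/- MEFs. Between Meg3 and Dlk1 the proportion differed more, with 2.44 times as much Meg3 in Dnmt1+/+ and 5.04 times in Dnmt1-/-. No spread is known for these ratios.

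Mirg, which hosts miRNAs, was listed in 1 entry together with Mir369 and Mir412 (chr12:110973112-110987667). Its level was 0.950 RPKM in the Dnmt1+/+ library against 0.0226 in the Dnmt1-/- one. It stayed under the minimum of 1 RPKM and was therefore not counted, although its log2 change of -3.10 was close to that of Meg3. The linear ratio of the RPKM values was 42.1, but with a pseudocount of 1 the log2 change was -0.93, within 2-fold. The RPKM of Rian exceeded that of Mirg 15.8 times in Dnmt1+/+ and 88.0 times in Dnmt1-/-. The ratio in Dnmt1-/- rests on a Mirg value near 0, and no spread is known for either ratio.

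**Figure D1:**
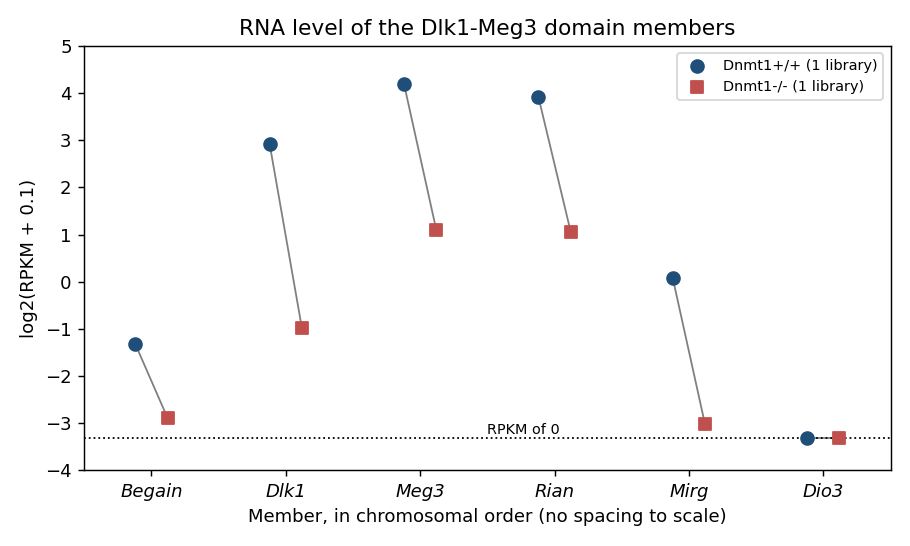
RNA level of the 6 members with an entry, as log2(RPKM + 0.1), in chromosomal order, with circles for the Dnmt1+/+ library, squares for the Dnmt1-/- library and a line joining both values of a gene. The squares of Begain, Dlk1, Meg3, Rian and Mirg lie below their circles, and Dio3 lies on the dotted line of an RPKM of 0 in both libraries.

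Begain, on the minus strand at the proximal edge of the domain, encodes a protein found at neuronal synapses. Its entry (chr12:110270392-110306427) went from 0.300 RPKM in Dnmt1+/+ to 0.0349 in Dnmt1-/- MEFs, with a log2 change of -1.57. Both values are under 1 RPKM, and with a pseudocount of 1 the log2 change was -0.33. At the distal end Dio3, the deiodinase that inactivates thyroid hormone, was listed at 0 in both libraries with the status NOTEST (chr12:111517440-111519307), as was its antisense neighbour Dio3os. At 0 no direction can be given for Dio3.

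Of the 6 member entries, 5 had the status OK and 3 (Dlk1, Meg3 and Rian) reached 1 RPKM. These 3 were lower in Dnmt1-/- MEFs by more than 2-fold, against a background of 10.9% of the 11244 entries. None of the 3 was higher, against a background of 8.47%. Without the minimum on RPKM the number of lower members was 5, with Mirg and Begain added, where 11.1% of 14865 entries were lower and 9.92% higher. In Dnmt1+/+ the order of levels was Meg3, Rian, Dlk1, Mirg, Begain and Dio3, and in Dnmt1-/- Begain came before Mirg. Which neighbours in these orders differ beyond error cannot be said from 1 library each.

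**Figure D2:**
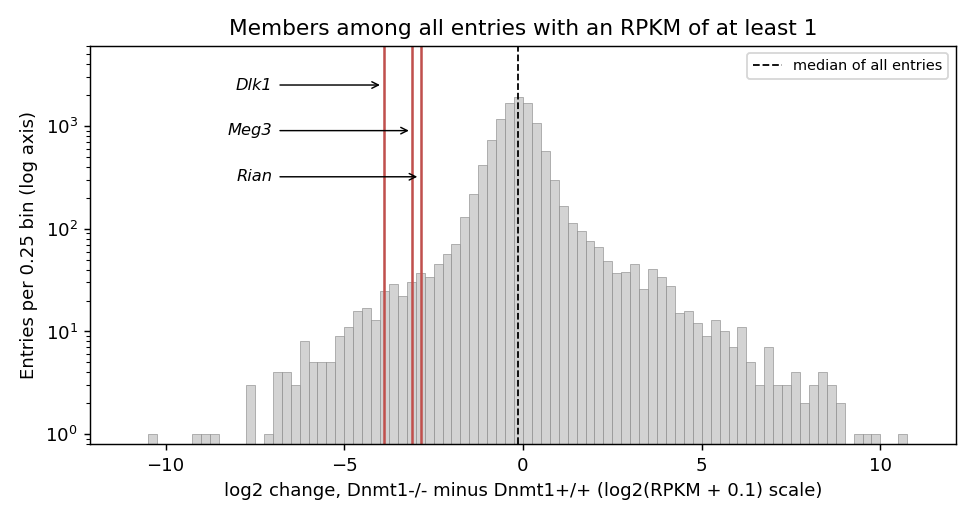
Histogram of the log2 change from Dnmt1+/+ to Dnmt1-/- of the 11244 entries that reached an RPKM of 1, in bins of 0.25 on a log count axis, with solid lines at Dlk1, Meg3 and Rian and a dashed line at the median of -0.14. The 3 members lie in the lower tail, between -3.90 and -2.86.

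By distance in the plane of both log2 levels, over 2 libraries, the entries closest to Dlk1 were Nsg1 (a distance of 0.06), Cpxm1 (0.16) and Hoxb8 (0.20). Those closest to Meg3 were Irx1 (0.19), Odz3 (0.19) and Clip3 (0.26). The entry closest to Rian was Meg3 itself, at a distance of 0.28, followed by Tnfrsf11b (0.28) and Mum1l1 (0.30). These distances rank 11244 entries on a pair of values and are a description only.

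Between Begain and Dio3 the table held 58 entries in all, ends included. Apart from the members, 49 of these were small RNAs, 48 of which were listed at 0 in both libraries. The exception, Mir134, was at 0.717 RPKM in Dnmt1+/+ MEFs and listed at 0 in the Dnmt1-/- library, with the status NOTEST. The mRNA libraries were not made to capture mature miRNAs, so a value of 0 here says nothing of their level. The transcript 6430411K18Rik, which lies inside the annotated Rtl1 gene, was listed at 0 in both libraries. Its span holds the plus-strand miRNA genes Mir433 and Mir127, and its value is not one of Rtl1. The 1 entry without a symbol (chr12:111283317-111283512, 196 bases, between Mirg and Dio3) was at 9.63 RPKM in Dnmt1+/+ and listed at 0 in Dnmt1-/-.

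The hairpins of 58 RefSeq miRNA genes were found in the NCBI37 sequence between Begain and Dio3, with 54 on the plus strand, the strand of Meg3, Rian and Mirg. Of the hairpins, 1 lay within the entry of Meg3, 3 within that of Rian and 11 within that of Mirg, and the other 43 lay within none of the member entries. The mature sequences below are chosen from these host entries, whose RNA was lower in Dnmt1-/-, to show what the host RNAs carry. The seed, bases 2 to 8, which pairs with target RNAs, is in capitals. First come 1 sequence from Meg3 and 2 from Rian, then the pair of miRNAs named in the joint entry with Mirg.
miR-770-3p: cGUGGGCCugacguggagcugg
miR-341-5p: cGGUCGGCcgaucgcucgguc
miR-370-3p: gCCUGCUGggguggaaccuggu
miR-369-5p: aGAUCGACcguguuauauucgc
miR-369-3p: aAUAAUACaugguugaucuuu
miR-412-5p: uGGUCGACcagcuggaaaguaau
miR-412-3p: uUCACCUGguccacuagccg
No seed is shared among these 7. Across the 108 mature sequences of the domain there were 99 distinct seeds, and 9 seeds occurred more than once, covering 18 sequences. A pair within Mirg with the same seed, and a pair formed by 1 miRNA within Mirg and 1 upstream of it, are shown.
miR-453: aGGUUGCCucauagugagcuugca
miR-496a-5p: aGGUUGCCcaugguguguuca
miR-410-5p: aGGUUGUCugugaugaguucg
miR-494-5p: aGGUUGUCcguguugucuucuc
The RNA-seq values bear on the host transcripts Meg3, Rian and Mirg, and no level of these mature miRNAs was measured.

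Genes on either side of the domain were compared next. Within 1 Mb of the span from Begain to Dio3 lay 27 entries with a symbol, and 22 of these reached 1 RPKM. In Dnmt1-/- MEFs 1 was higher and 2 were lower by more than 2-fold, and the other 19 stayed within it, with a median log2 change of -0.34. Over all 11244 entries 8.47% were higher and 10.9% lower, with a median log2 change of -0.14. The neighbours before Begain, Wdr25 and Wars (a tryptophanyl-tRNA synthetase), had log2 changes of -0.42 and -0.48. The first neighbour after Dio3, Ppp2r5c, a regulatory subunit of protein phosphatase 2A, had 33.0 RPKM in the Dnmt1+/+ library against 24.4 in the other and a log2 change of -0.43. Eml1, which encodes a microtubule-associated protein, was higher, going from 12.5 RPKM in Dnmt1+/+ to 29.5 in Dnmt1-/-. The joint entry of Mir345 and Slc25a47, a mitochondrial carrier gene, was lower, at 1.44 and 0.419 RPKM, as was the kinase gene Stk30, at 1.67 and 0.747 RPKM. With a pseudocount of 1 neither of these 2 remained past 2-fold. The log2 changes of the flanking entries ranged from -1.57 to 1.23, and those of Dlk1, Meg3 and Rian lay below this range.

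**Figure D3:**
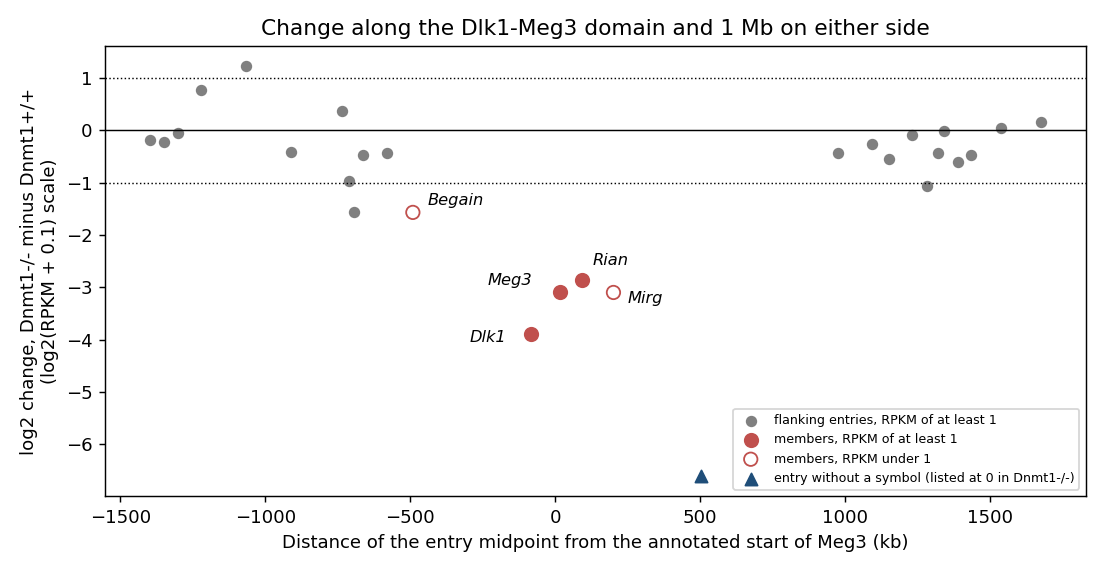
Log2 change from Dnmt1+/+ to Dnmt1-/- of each entry by the distance of its midpoint from the annotated start of Meg3, in kb, with dotted lines at 2-fold. Filled red circles are members that reached 1 RPKM, open circles members under it, grey points the 22 flanking entries and the triangle the entry without a symbol, and the members Dlk1, Meg3, Rian and Mirg lie below every flanking entry.

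The partners of the members were examined by lists, whose counts stand beside 8.47% of all 11244 entries higher and 10.9% lower. Dlk1 is related to the ligands of Notch receptors. Of 16 genes for Notch receptors, ligands and targets, 9 reached 1 RPKM, none was higher and 1 was lower by more than 2-fold, with a median log2 change of -0.10. The lower gene was Hey2, a Notch target, at 1.77 RPKM in Dnmt1+/+ against 0.144 in Dnmt1-/-. If a mean of 1 RPKM over both libraries was required, Hey2 dropped out and no gene of the list was lower. Dlk2, the closest relative of Dlk1, had 8.78 RPKM in Dnmt1+/+ and 16.3 in Dnmt1-/-, a log2 change of 0.88. Adam17, the protease that sheds the Dlk1 ectodomain, was at 15.0 and 12.5 RPKM.

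Of 15 genes for thyroid hormone handling, the process in which Dio3 acts, 7 reached 1 RPKM. None of these was past 2-fold in either direction, and the median log2 change was -0.40. Thra, a thyroid hormone receptor, was at 57.0 RPKM in Dnmt1+/+ and 35.5 in Dnmt1-/-. Of the activating deiodinases, Dio1 was listed at 0 in both libraries and Dio2 was at 0.00833 and 0.0108 RPKM. The transporter gene Slco1c1 was also listed at 0 in both.

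Rtl1 derives from the gag and pol genes of a retrotransposon, and 8 of 10 symbols listed for its gag-derived relatives had an entry. Of these 3 reached 1 RPKM. Cxx1c was higher, at 3.90 RPKM in Dnmt1+/+ against 11.5 in Dnmt1-/- MEFs, but near-identical paralogs make the assignment of its reads uncertain. Peg10, an imprinted relative on another chromosome, was at 23.9 and 35.8 RPKM, within 2-fold. Ldoc1 and Zcchc16 were listed at 0 in both libraries.

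The machinery that processes the RNAs hosted by Meg3, Rian and Mirg was detected in both libraries. In the list for miRNA processing and box C/D snoRNA assembly 14 entries were found and 13 reached 1 RPKM, of which none was higher and 2 were lower. The lower genes encode Argonaute proteins, with Eif2c1 at 8.30 RPKM in Dnmt1+/+ against 3.75 in Dnmt1-/-, and Eif2c3 at 2.48 against 0.747. With a pseudocount of 1 neither was past 2-fold, and after subtraction of the median change 1 was. Drosha, which cuts miRNA hairpins out of host RNAs, was at 125.8 and 130.1 RPKM. Fbl, the methyltransferase of box C/D snoRNPs, was at 44.1 and 46.7 RPKM. The median log2 change of the list was 0.05.

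The list for imprint maintenance held 13 factors, among them Tet1, Tet2 and Tet3 and the methyltransferase genes Dnmt3a, Dnmt3b and Dnmt3l. Its counts are therefore not of maintenance factors alone. Of the 13, 7 reached 1 RPKM, none was higher and 1 was lower, with a median log2 change of -0.61. Tet2, an enzyme that oxidises methylcytosine, was the lower gene, at 1.92 RPKM in Dnmt1+/+ and 0.388 in Dnmt1-/-. Without the minimum on RPKM 3 factors were lower and none was higher. The added factors, under 1 RPKM in both libraries, were Tet1, at 0.889 and 0.00830 RPKM, and Dnmt3b, at 0.839 and 0.308. Zfp57 was at 18.95 and 10.8 RPKM and its partner Trim28 at 93.6 and 75.2, both within 2-fold. Setdb1 had the status FAIL and was listed at 0 in both libraries. Dnmt1 itself had an RPKM of 65.2 in the library labelled Dnmt1+/+ and 14.5 in that labelled Dnmt1-/-.

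Of 22 imprinted genes listed for other domains, 24 entries were found and 17 reached 1 RPKM. Here 4 were higher (H19, Gatm, Ndn and Sgce) and 7 lower (Igf2, Igf2r, Grb10, Slc38a4, the joint entry of Snrpn and Snurf, and 2 entries of Peg3), so that changes past 2-fold went in both directions. Over all 11244 entries 8.47% were higher and 10.9% lower. Of the higher genes, H19 and Gatm were listed at 0 in Dnmt1+/+. Another entry of Peg3, at 0.262 RPKM in Dnmt1+/+ and 0.246 in Dnmt1-/-, stayed under 1 RPKM. The median log2 change of the 17 entries was -0.27. One entry, that of Gnas, had the status FAIL and was listed at 0 in both libraries.

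**Figure D4:**
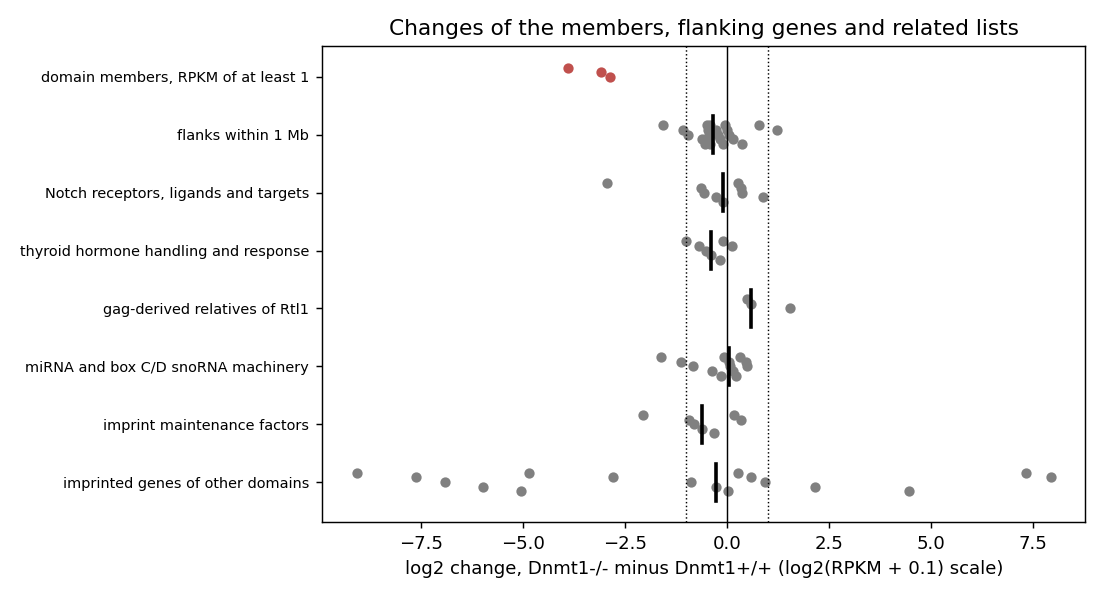
Log2 change from Dnmt1+/+ to Dnmt1-/- of each entry that reached 1 RPKM, for the domain members, the flanking genes and 6 gene lists, with points spread vertically for legibility, black bars at the median of each list except the members and dotted lines at 2-fold. Dlk1, Meg3 and Rian lie left of all flanking points, and imprinted genes of other domains spread to both sides.

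The cells were checked against their label with fibroblast markers, 11 of 12 of which reached 1 RPKM in Dnmt1+/+ and 10 of 12 in Dnmt1-/-, with summed RPKM of 6566 and 5085. Lum was near 0 in both, and Thy1 was at 4.84 and 0.129 RPKM. Of the fibroblast markers, 4 were more than 2-fold lower (Col1a2, Fn1, Thy1 and Postn) and 2 higher (Pdgfra and S100a4) in Dnmt1-/-. The summed RPKM of 8 adipocyte marker entries was 3.18 in Dnmt1+/+ and 13.4 in Dnmt1-/-, carried by Fabp4, at 0.459 and 6.74, and Pparg, at 1.30 and 5.79. Cebpa, the other adipocyte marker that reached 1 RPKM, had a lower value in Dnmt1-/-, at 1.38 and 0.817, within 2-fold. Adipoq and Lep were at 0.0119 and 0.0264 RPKM in Dnmt1+/+ and listed at 0 in Dnmt1-/-, and Plin1, Retn and Cidec were listed at 0 in both. Among 15 entries for epithelial, endothelial, blood, neuronal, pluripotent and placental markers, only Tubb3 reached 1 RPKM, at 16.9 and 12.9. Of these entries, Ptprc, Tpbpa and Snap25 were listed at 0 in both libraries. The libraries also differed in Xist, at 0.00648 RPKM in Dnmt1+/+ against 37.0 in Dnmt1-/-. The Y-linked genes Ddx3y and Eif2s3y were at 13.9 and 18.8 RPKM in Dnmt1+/+ and listed at 0 in Dnmt1-/-. The part of these differences in the values of the domain was not tested, and with 1 line per genotype the effect of Dnmt1 and that of the line cannot be told apart.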

How the data were processed

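Strand-specific mRNA libraries, 1 per genotype, were sequenced from one end for 50 bp. TopHat (alignment to mm9) and Cufflinks (assembly) were followed by Cuffdiff, whose RPKM values the authors deposited as 1 column per library with a status per entry. Versions, the scaling of libraries beyond mapped reads and the use of strand in counting are not given in the sources used here. The table holds no read counts, so it does not give the reads behind a value, and a value of 0 is given as listed at 0. It holds no fold changes or p-values.

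Changes were differences of log2(RPKM + 0.1). Calls used a 2-fold difference among entries with status OK and a symbol that reached 1 RPKM in either library. With 1 library per genotype no test was made. The alternatives were pseudocounts of 1, 0.01 and none, no minimum or a mean RPKM of at least 1, a 1.5-fold threshold, any status and centring on the median change. The calling step was run on simulated data with planted changes well past the threshold. Such a run checks the code and says nothing of the error of the calls.

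The members and the 9 gene lists were chosen with earlier results of these data known. Genes named were the members, Dnmt1 as the check of the labels, and the other entries of the span. Small RNA entries at 0 were given by count. Flanking and listed genes past 2-fold or at 0 were also named, as were the 3 entries nearest to each member that reached 1 RPKM. Genes added after their values were seen were Wdr25, Wars, Ppp2r5c, Dlk2, Adam17, Thra, Dio2, Peg10, Drosha, Fbl, Zfp57, Trim28, Tet1, Dnmt3b, Cebpa, Adipoq, Lep, Tubb3, Lum, Xist, Ddx3y and Eif2s3y.

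Loci were converted to count from 1, in NCBI37 (mm9), with GENCODE vM1 annotation. Promoter windows and miRNAs came from RefSeq (GRCm38.p6 annotation). Windows for 6 of the 7 members were given, and member windows and miRNA hairpins were located in NCBI37 by exact match. Python 3.11.15, numpy 2.4.6, pandas 2.3.3 and matplotlib 3.10.9 were used.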

Additional observations from a re-analysis of the deposited data

How the results depend on the processing

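A pseudocount, a filter, the status or the threshold cannot alter the direction of a member, and only centring on the median change could. Begain, Dlk1, Meg3, Rian and Mirg had lower values in Dnmt1-/- MEFs under each of the 8 alternatives. Their log2 changes ranged from -4.20 to -2.59 for Dlk1, from -3.15 to -2.65 for Meg3, from -2.92 to -2.42 for Rian, from -5.39 to -0.93 for Mirg and from -3.10 to -0.33 for Begain. The number of lower members, 3, became 5 without the minimum on RPKM and was 3 under the other 7 alternatives. No paired analysis was possible because each genotype has 1 library.

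With a pseudocount of 1, 801 entries were lower in place of 1225, and 0 of the flanking entries in place of 2. Without the minimum on RPKM 1475 entries were higher in place of 952, and 14 entries of all lists together in place of 9. Requiring a mean RPKM of at least 1, or subtracting the median change, left 1 lower flanking entry. At a 1.5-fold threshold 1580 entries were higher and 2670 lower, and 2 flanking entries were higher and 4 lower. Of the entries of all lists together, 26 were lower at this threshold in place of 15. Of 144 counts for single lists, 129 were within 1.5 times the reported count. Counts of 0 that stayed at 0 are among these, so the number is no measure of stability. Read depth limits the values under 1 RPKM, and the table does not give it for single entries.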
